A study of Mus musculus with 3 samples.

Results

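The 8 genes described here, Vmn2r55, Vmn1r65, Cplx2, Rab3c, Grk4, Aplf, Mid1 and Gjc3, are mostly known from the nose, brain, testis or myelin rather than from T cells, and were far more abundant in CD4+ T cells from a melanoma than in those from lymphoid organs. They were picked by name, out of 23337 gene symbols with a value, because their level was much higher in the tumour library. No numeric threshold set the choice. Their tumour levels are therefore given as a description, without a test. Their lymphoid levels entered the choice as well, as the level the rise was judged against, and are likewise a description. Compared below are things the choice did not use: their chromosomal neighbours, gene families, protein partners and sequences. Their grouping as genes foreign to T cells does not mean that they were silent in lymphoid cells, since all 8 had a lymphoid mean of at least 1 FPKM (fragments per kilobase per unit of sequencing depth) as deposited and a value above 0 in every library.

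Vmn2r55 and Vmn1r65 belong to the type 2 and type 1 vomeronasal receptors, large families of G protein coupled receptors with which sensory neurons of the vomeronasal organ detect pheromones, each neuron usually expressing very few of them. Complexin 2 (Cplx2) binds assembled SNARE complexes and tunes the calcium-triggered fusion of synaptic vesicles, and Rab3c is a small GTPase carried on secretory vesicles. Grk4 is a kinase that phosphorylates activated G protein coupled receptors and is known from testis and kidney. Aplf is a DNA repair factor that binds Ku and poly(ADP-ribose) at strand breaks, Mid1 is a microtubule-bound ubiquitin ligase that targets the phosphatase PP2A through its alpha4 subunit, and Gjc3 encodes a connexin of Schwann cells and oligodendrocytes.

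RNA was measured in CD4+ cells labelled Th1, the helper T cell subset marked by T-bet and interferon gamma, taken at 7 weeks of age from C57/Bl6j mice of wild-type genotype. The tumour group is 1 library of cells from B16-F10 tumours, a melanoma line of the same strain, and the lymphoid group is 2 libraries, titled as spleen but with a tissue label that also lists lymph nodes and draining lymph nodes. All 3 were made from 300000 cells as stranded libraries of total RNA depleted of ribosomal RNA. Nothing in the labels says that the libraries came from separate animals or whether animals were pooled, so a p-value here reflects only how far these libraries differ, and that difference may be technical.

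The tumour library was the shallowest, with an estimated 3270000 fragments against 11480000 and 15630000 in lymphoid libraries 1 and 2. The deposited values were lower in tumour for most genes, with a median log2 fold change of -0.96 over the 9800 tested, so levels below are FPKM divided by median-of-ratios size factors (0.579 for tumour, 1.29 and 1.33 for lymphoid) and all changes are relative to the median gene. Fold changes are on the log2(scaled FPKM + 1) scale, which understates the change of low genes. On this scale limma with Benjamini-Hochberg adjustment called 12.7% of tested genes higher and 9.17% lower in tumour at an adjusted p under 0.05, and 2.17% were at least 4-fold higher than in each lymphoid library. The 2 lymphoid libraries were at least 4-fold apart for 0.357% of them.

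The CD4+ T cell label was checked against T cell genes. The 14 pan T cell markers summed to 950 scaled FPKM in the tumour library, against 958 and 968 in the lymphoid libraries, and limma called none of them, with none at an unadjusted p under 0.05. Marker lists of the tissues in which the 8 genes are usually described stood lower. The 12 neuron markers summed to 10.2 scaled FPKM in tumour, against 0.568 and 0.577 in lymphoid cells, with 4 of the 12 at 0 in tumour and no marker above 2.57. The 10 markers of vomeronasal and olfactory sensory neurons summed to 14.5 in tumour and to 5.18 and 4.47 in lymphoid cells, with Omp, the defining marker of mature olfactory neurons, at 1.52 in tumour and 0 in both lymphoid libraries. The 15 Schwann cell and oligodendrocyte markers summed to 46.9 in tumour and 42.9 and 43.3 in lymphoid cells, mostly from Mbp and Cnp, and the other 13 to 14.2 in tumour, against 1.16 and 1.51. The 15 melanocyte and B16 markers summed to 6.90 in tumour and 2.71 and 3.17 in lymphoid cells. Of these, 6 were at 0 in tumour, among them the melanoma antigen gene Mlana, and the highest was Pmel at 1.49. The 10 germ cell markers summed to 3.07 in tumour, against 0.616 and 1.66, with 6 at 0 in tumour. Markers of myeloid cells summed to 10.6 in tumour, against 1.56 and 1.36, and their only tested member, Itgam, was called higher (log2 fold change 1.43, adjusted p = 0.0058 with limma). B cell, fibroblast, endothelial, NK cell and erythroid markers summed to 1.90, 1.93, 9.76, 55.9 and 1.42 in tumour, and to 0.848 to 1.11, 0.276 to 0.315, 8.98 to 9.91, 69.2 to 72.0 and 1.92 to 2.10 in lymphoid cells. The endothelial and NK cell sums came mostly from tested genes such as Pecam1 and Nkg7. The 7 endothelial markers other than Pecam1 summed to 2.07 in tumour, against 0.152 and 0.181, and the 4 untested NK cell markers to 4.24, against 0.609 and 0.893. Low markers of most of these cell types were thus higher in the tumour library, each at a low level. Rows of odorant receptors, without those above 5 in tumour, were also higher there on average, at 0.336 against 0.013 and 0.048 in lymphoid cells. The median over all odorant receptor rows was 0 in tumour and 0.032 in lymphoid library 2. Whether such cells were present, and their part in the levels of the 8 genes, was not tested. In bulk RNA, more cells that express a gene and more RNA of it per cell cannot be told apart.

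Among the 8 genes, the pheromone receptor Vmn2r55 had the widest gap between the groups. It stood at 76.2 scaled FPKM in the tumour library, against 1.38 and 1.26 in lymphoid libraries 1 and 2. The tumour value lay far above both lymphoid values, which were close to each other (1.32 ± 0.083, SD, n = 2), and the ratio of the tumour value to the lymphoid mean was 57.8. It rested on an estimated 354 tumour fragments and on 50.1 and 64.3 lymphoid fragments, so the lymphoid level too was a measured one. Vmn2r55 (ENSMUSG00000091045.9) lies on the minus strand at chr7:12651706-12685003 (GRCm38, GENCODE M21, as for all gene positions here) and has 6 exons in its longest transcript.

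Vmn2r55 has close relatives beside it, and their sequences bear on how its value can be read. The promoter windows of RefSeq (GRCm38.p6, 250 bases before to 50 after the annotated start, minus strand) of Vmn2r55, at chr7:12684942-12685241, and of its neighbour Vmn2r54, at chr7:12636085-12636384, line up without a gap. For Vmn2r54 the RefSeq start lies 4185 bases inside the GENCODE gene model, which has a longer transcript. In both windows the 50 bases after the annotated start open with atg, the letters of a start codon. Neither window need therefore lie at the start of transcription in use. They are shown because the genes differed so much in level while 289 of the 300 bases are identical (96.3%). Capitals mark the 11 positions at which they differ.
Vmn2r55: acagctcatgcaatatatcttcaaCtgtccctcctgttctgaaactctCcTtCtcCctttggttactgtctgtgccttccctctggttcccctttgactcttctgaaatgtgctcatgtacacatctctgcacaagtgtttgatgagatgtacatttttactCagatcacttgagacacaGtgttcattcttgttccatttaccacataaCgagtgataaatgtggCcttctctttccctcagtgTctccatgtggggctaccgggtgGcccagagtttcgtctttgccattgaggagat
Vmn2r54: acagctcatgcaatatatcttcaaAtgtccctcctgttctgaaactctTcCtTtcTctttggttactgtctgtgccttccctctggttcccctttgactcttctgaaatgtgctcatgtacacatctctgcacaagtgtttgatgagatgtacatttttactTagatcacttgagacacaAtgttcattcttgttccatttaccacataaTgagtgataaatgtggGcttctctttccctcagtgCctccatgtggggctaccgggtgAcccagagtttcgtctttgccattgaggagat
Vmn2r54 stood at 0.379 scaled FPKM in tumour, against 0.014 and 0.066 in lymphoid cells, from an estimated 3.06 tumour fragments, and thus stayed close to 0 beside Vmn2r55 at 76.2. The transcripts are as alike as the windows. A transcript of Vmn2r55 aligned to one of Vmn2r54 over 2345 positions at 96.5% identity, to Vmn2r56 over 2349 positions at 94.5% and to Vmn2r53 over 2351 positions at 93.4%. How reads shared by such copies were assigned is not given in the sources used here, so the division of the signal among these 4 genes is uncertain.

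Vmn1r65, the type 1 pheromone receptor, stood at 29.6 scaled FPKM in the tumour library, against 0.769 and 1.32 in the lymphoid libraries. The tumour value was above both, and the lymphoid values differed among themselves by a factor of 1.72, the widest such gap of the 8 genes (1.05 ± 0.391, SD, n = 2). The ratio of the tumour value to the lymphoid mean was 28.3, from an estimated 176 tumour fragments and 36.0 and 86.7 lymphoid ones. The gene (ENSMUSG00000066850.2) spans only 3261 bases on the minus strand at chr7:6007750-6011010, and its longest transcript is not annotated as coding. Its RefSeq promoter window, chr7:6010961-6011260, is shown because it was the only one among the 8 genes with the letters TATAAA, in capitals and read here on the strand opposite to the gene.
Vmn1r65: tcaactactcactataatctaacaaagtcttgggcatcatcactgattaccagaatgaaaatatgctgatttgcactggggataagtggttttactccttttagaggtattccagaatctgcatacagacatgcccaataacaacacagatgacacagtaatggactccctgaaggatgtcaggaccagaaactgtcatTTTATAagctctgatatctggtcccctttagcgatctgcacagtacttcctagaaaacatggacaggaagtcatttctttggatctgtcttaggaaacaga

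The exocytosis genes Cplx2 and Rab3c were alike in how the lymphoid libraries compared. Cplx2 stood at 87.9 scaled FPKM in the tumour library, against 7.10 and 4.56 in lymphoid libraries 1 and 2. This was the highest tumour level of the 8 genes, and its lymphoid level was also the highest (5.83 ± 1.80, SD, n = 2), above that of 56.7% of tested genes. The ratio of the tumour value to the lymphoid mean was 15.1. Rab3c stood at 25.04 in the tumour library, against 2.05 and 1.32 in the lymphoid libraries, a ratio of 14.9 to their mean of 1.68 ± 0.516 (SD, n = 2). In both genes the groups did not overlap and lymphoid library 2 was the lower of the lymphoid pair, at 0.641 of library 1 for Cplx2 and 0.643 for Rab3c. The estimated fragments were 821 in tumour for Cplx2, against 520 and 468, and 401 in tumour for Rab3c, against 257 and 232. Both genes lie on chromosome 13, Cplx2 on the plus strand at chr13:54371349-54383917 and Rab3c on the minus strand at chr13:110054187-110280996, where it spans 226810 bases.

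Grk4 and Aplf followed each other closely. The receptor kinase gene Grk4 stood at 72.4 scaled FPKM in the tumour library, against 4.78 and 6.36 in the lymphoid libraries, and the repair gene Aplf at 56.4 in tumour, against 3.82 and 5.58. Tumour values lay above both lymphoid values, and lymphoid library 2 was the higher of the pair in both genes, by a factor of 1.33 for Grk4 and 1.46 for Aplf. Over lymphoid means of 5.57 ± 1.12 and 4.70 ± 1.24 (SD, n = 2), the ratios were 13.0 for Grk4 and 12.0 for Aplf. Grk4 rested on an estimated 444 tumour fragments and Aplf on 384. Grk4 lies on the plus strand at chr5:34660379-34755305 and Aplf on the minus strand at chr6:87628424-87672193. The RefSeq promoter window of Aplf, chr6:87672112-87672411 on the minus strand, is shown because it was the only one among the 8 genes to hold a cAMP response element, in capitals.
Aplf: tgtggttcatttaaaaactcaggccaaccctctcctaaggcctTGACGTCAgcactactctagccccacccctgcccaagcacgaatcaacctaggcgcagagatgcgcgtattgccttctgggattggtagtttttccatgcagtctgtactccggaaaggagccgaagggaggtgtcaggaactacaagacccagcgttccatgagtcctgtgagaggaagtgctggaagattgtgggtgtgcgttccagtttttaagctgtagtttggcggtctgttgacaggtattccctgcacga

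Mid1 and Gjc3, like Vmn2r55, had lymphoid values close to each other. The ubiquitin ligase gene Mid1 stood at 27.8 scaled FPKM in the tumour library, against 1.84 and 2.01 in the lymphoid libraries, a ratio of 14.4 to the mean of 1.93 ± 0.124 (SD, n = 2). The connexin gene Gjc3 was the lowest of the 8 in tumour, at 7.44 against 0.779 and 0.831 in lymphoid cells, a ratio of 9.24 to the mean of 0.805 ± 0.037 (SD, n = 2). Neither gene's groups overlapped. Gjc3 had the thinnest tumour measurement, with an estimated 56.4 fragments, against 46.3 and 69.3 in lymphoid cells, whereas Mid1 had 209, against 109 and 167. Mid1 lies on the plus strand at chrX:169685199-170005736, spans 320538 bases and has 15 annotated transcripts. Gjc3 lies on the minus strand at chr5:137953461-137963098. When the shortest annotated transcript stood in for the longest, the estimated tumour fragments of the 8 genes ranged from 8.23 to 821, in place of 56.4 to 821.

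**Figure D1:**
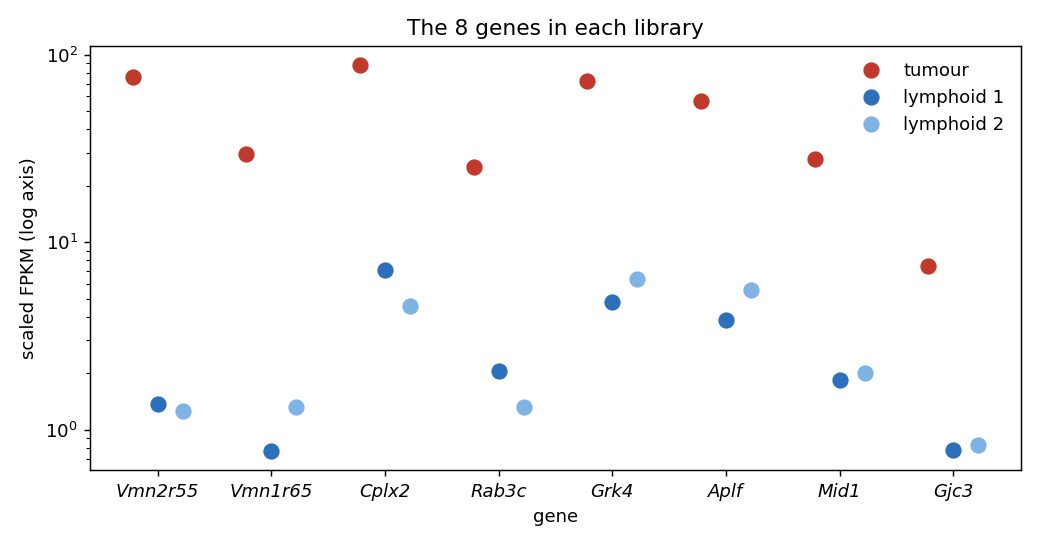
Scaled FPKM (log axis) of each of the 8 genes in the tumour library (red) and in lymphoid libraries 1 and 2 (blue), with no error bars because each point is 1 library. The tumour value lies above both lymphoid values in all 8 genes, from 7.44 for Gjc3 to 87.9 for Cplx2.

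As a group, the 8 genes had ratios of the tumour value to the lymphoid mean of 9.24 to 57.8, with a median of 14.7. Their log2 fold changes ran from 2.22 for Gjc3 to 5.06 for Vmn2r55, with a median of 3.42 beside -0.01 over all tested genes, and ranked from 13 (Vmn2r55) to 174 (Gjc3) of 9800. All 8 were called higher by limma, where 12.7% of tested genes were, and all 8 were at least 4-fold higher than in each lymphoid library, where 2.17% were. Since the genes were chosen on this contrast, these counts restate the choice. In level, the tumour values reached the 64.0th percentile of tested genes for Gjc3 and the 90.4th to 97.0th for the rest. By rank the lymphoid levels were spread more widely, from the 2.58th percentile for Gjc3, the 5.68th for Vmn1r65 and the 10.4th for Vmn2r55 up to the 48.6th for Aplf, the 55.0th for Grk4 and the 56.7th for Cplx2. The choice was made on the difference, and these lymphoid ranks separate genes that were near the floor of the tested range from genes measured near the middle of it.

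**Figure D2:**
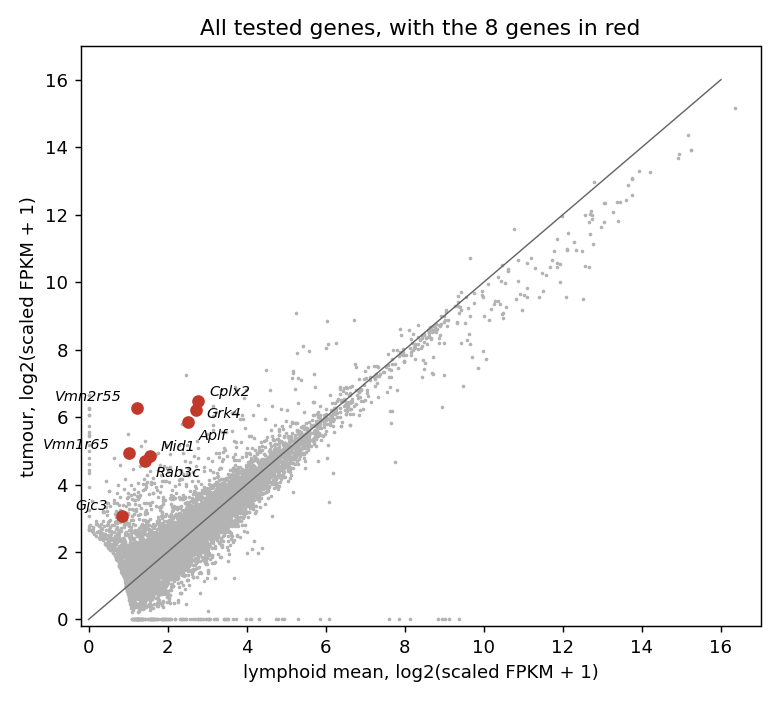
Tumour level against the lymphoid mean, each as log2(scaled FPKM + 1), for the 9800 tested genes (grey) and the 8 genes (red), with the line of equal levels. The 8 genes lie above the line, at lymphoid levels from the 2.58th to the 56.7th percentile of tested genes.

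The gene with the most similar 3 values was found for each of the 8 by the Euclidean distance of log2(scaled FPKM + 1) over the 3 libraries, a description of these libraries only. Aplf was the nearest gene to Grk4, at a distance of 0.470, and the only case in which the nearest gene was another of the 8. The closest match of all was Emp2, an epithelial membrane protein gene, to Rab3c, at 0.070, with Emp2 at 24.1 scaled FPKM in tumour, against 2.06 and 1.24 in lymphoid cells. Armc9 was nearest to Gjc3 at 0.114 and the activation-induced nuclear receptor gene Nr4a1 to Mid1 at 0.221, with Nr4a1 at 29.0 in tumour, against 2.13 and 2.37 in lymphoid cells. Rhox8, a homeobox gene of the reproductive tract, was nearest to Cplx2 at 0.661. Fosl2, which encodes a subunit of AP-1, was nearest to Vmn2r55 at 0.849, the loosest match. The long noncoding RNA E330023G01Rik was nearest to Vmn1r65 at 0.556, and G530011O06Rik, which lies inside Mid1, was nearest to Aplf at 0.462.

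The chromosomal neighbours of the 8 genes mostly did not share their tumour level. Neighbours were every gene row that overlaps a gene of the 8 and the 3 nearest rows on each side, which gave 48 genes (above Mid1, near the end of the X chromosome, there was only 1 such row, while 2 rows overlap Mid1), 17 of them abundant enough to be tested. Limma called 3 of the 17 higher and 0 lower, beside 12.7% higher and 9.17% lower among all tested genes. Log2 fold changes of the tested neighbours not called ran from -0.48 for Mfsd10 to 0.45 for Zfp787. In the tumour library the gene of the 8 was at least 10-fold above its neighbour in 37 of 48 cases, and a neighbour stood above it in 2. Since the 8 genes were chosen for a high tumour level, these counts largely restate the choice. Of the 17 tested neighbours, 2 were at least 4-fold higher in tumour than in each lymphoid library, beside 2.17% of all tested genes. The median log2 fold change of the 48, tested or not, was 0.34, beside 0.11 over all genes without a filter. Of the 48, 30 had a lymphoid mean under 0.5 scaled FPKM, and these stood between 0 and 2.89 in tumour, with a median of 0.381.

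Around the receptor genes most neighbours were low. Vmn2r54 and Vmn2r56, on either side of Vmn2r55, stood at 0.379 and 0.318 scaled FPKM in tumour, against 0.014 and 0.066 for Vmn2r54 and 0 and 0.051 for Vmn2r56 in lymphoid cells. Beside Vmn1r65, the receptor gene Vmn1r64 was listed at 0 in all 3 libraries, and Nlrp4c at 0 in tumour and at 0.018 and 0 in lymphoid cells. Of the 6 neighbours of each receptor, the highest stood at 2.50 for Vmn2r55 and 2.79 for Vmn1r65 in tumour, where Vmn2r55 stood at 76.2 and Vmn1r65 at 29.6.

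The nearest neighbours of Cplx2 and Grk4 had log2 fold changes from -0.14 to 0.38. Of the 6 neighbours of each, 3 were higher in tumour. Those lower there included Sfxn1 and 4833439L19Rik near Cplx2, at 3.53 and 2.83 scaled FPKM in tumour. Their lymphoid values were 4.92 and 5.11 for Sfxn1, and 4.65 and 3.95 for 4833439L19Rik. Mfsd10, near Grk4, stood at 2.04 in tumour, against 3.61 and 2.90. Next to Cplx2, the histamine receptor gene Hrh2 stood at 2.37 scaled FPKM in tumour, against 2.45 and 1.96 in lymphoid cells, and the mRNA export gene Thoc3 at 2.49 in tumour, against 2.68 and 2.74. Nop14, a ribosome assembly gene whose end lies 231 bases from Grk4 on the opposite strand, stood at 14.1 in tumour, against 8.19 and 13.7. On the other side of Grk4, the huntingtin gene Htt stood at 4.01 in tumour, against 4.67 and 4.37. Grk4 itself, at 72.4, stood between neighbours whose tumour and lymphoid values lay close together (adjusted p = 0.40 for Nop14 and 0.542 for Htt with limma, log2 fold changes 0.38 and -0.14). For Aplf and Gjc3 all 6 neighbours of each were higher in tumour, with median log2 fold changes of 0.63 and 0.89. The share over all genes was not counted, and 5 of the 6 neighbours of Vmn2r55 were also higher. Arhgap25, the only tested one beside Aplf, stood at 21.9 in tumour, against 18.5 and 21.3. Also beside Aplf, Prokr1 and the lincRNA 1810020O05Rik stood at 0.382 and 0.529 in tumour, against at most 0.016 and 0.098 in lymphoid cells. They rested on an estimated 3.06 and 1.05 tumour fragments. Beside Gjc3, Cyp3a13 and Azgp1 stood at 0.705 and 0.413, against at most 0.045 and 0.054. They rested on an estimated 3.95 and 1.02 tumour fragments. The highest neighbour of Gjc3 was Smok3a, a sperm motility kinase gene named after its value was seen, at 2.89 in tumour, against 0.025 and 0.070, from an estimated 14.9 tumour fragments, and no neighbour of Gjc3 was abundant enough to be tested. Beside Mid1, Hccs stood at 3.75 in tumour, against 2.78 and 2.57, and Asmt at 0, against 0 and 0.042.

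Under the neighbour rule used here, the 3 neighbours that limma called higher belonged to Rab3c and Mid1. Pde4d, a cAMP phosphodiesterase gene on the opposite strand 100726 bases from Rab3c, stood at 11.4 scaled FPKM in tumour, against 2.44 and 2.32 in lymphoid cells (log2 fold change 1.88, SE 0.145, adjusted p = 0.0013). The lincRNA 3110015C05Rik, on the same strand but 930471 bases away, stood at 38.5 in tumour, against 1.60 and 1.76 (log2 fold change 3.88, SE 0.150, adjusted p = 0.00021). On the other side of Rab3c, Gapt stood at 0.257 in tumour, against 0 and 0.047, and Plk2 at 1.68, against 0.407 and 0.372. Both lie between Rab3c and that lincRNA, and rested on an estimated 1.01 and 8.90 tumour fragments. G530011O06Rik lies within Mid1 on the opposite strand, at chrX:169975043-169978917, and stood at 54.5 in tumour, against 4.38 and 3.88 (log2 fold change 3.44, SE 0.164, adjusted p = 0.00049). It was thus about as far above its lymphoid level as Mid1, and above Mid1 in all 3 libraries. A Mid1 transcript and G530011O06Rik are identical over 737 bases on opposite strands, and whether the counting used strand is not given in the sources used here, so reads from that shared stretch cannot be told apart. These 3 calls were also made as deposited, by library totals, with no filter and with either other pseudocount, and with a mean of at least 5 FPKM Pde4d was no longer tested.

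**Figure D3:**
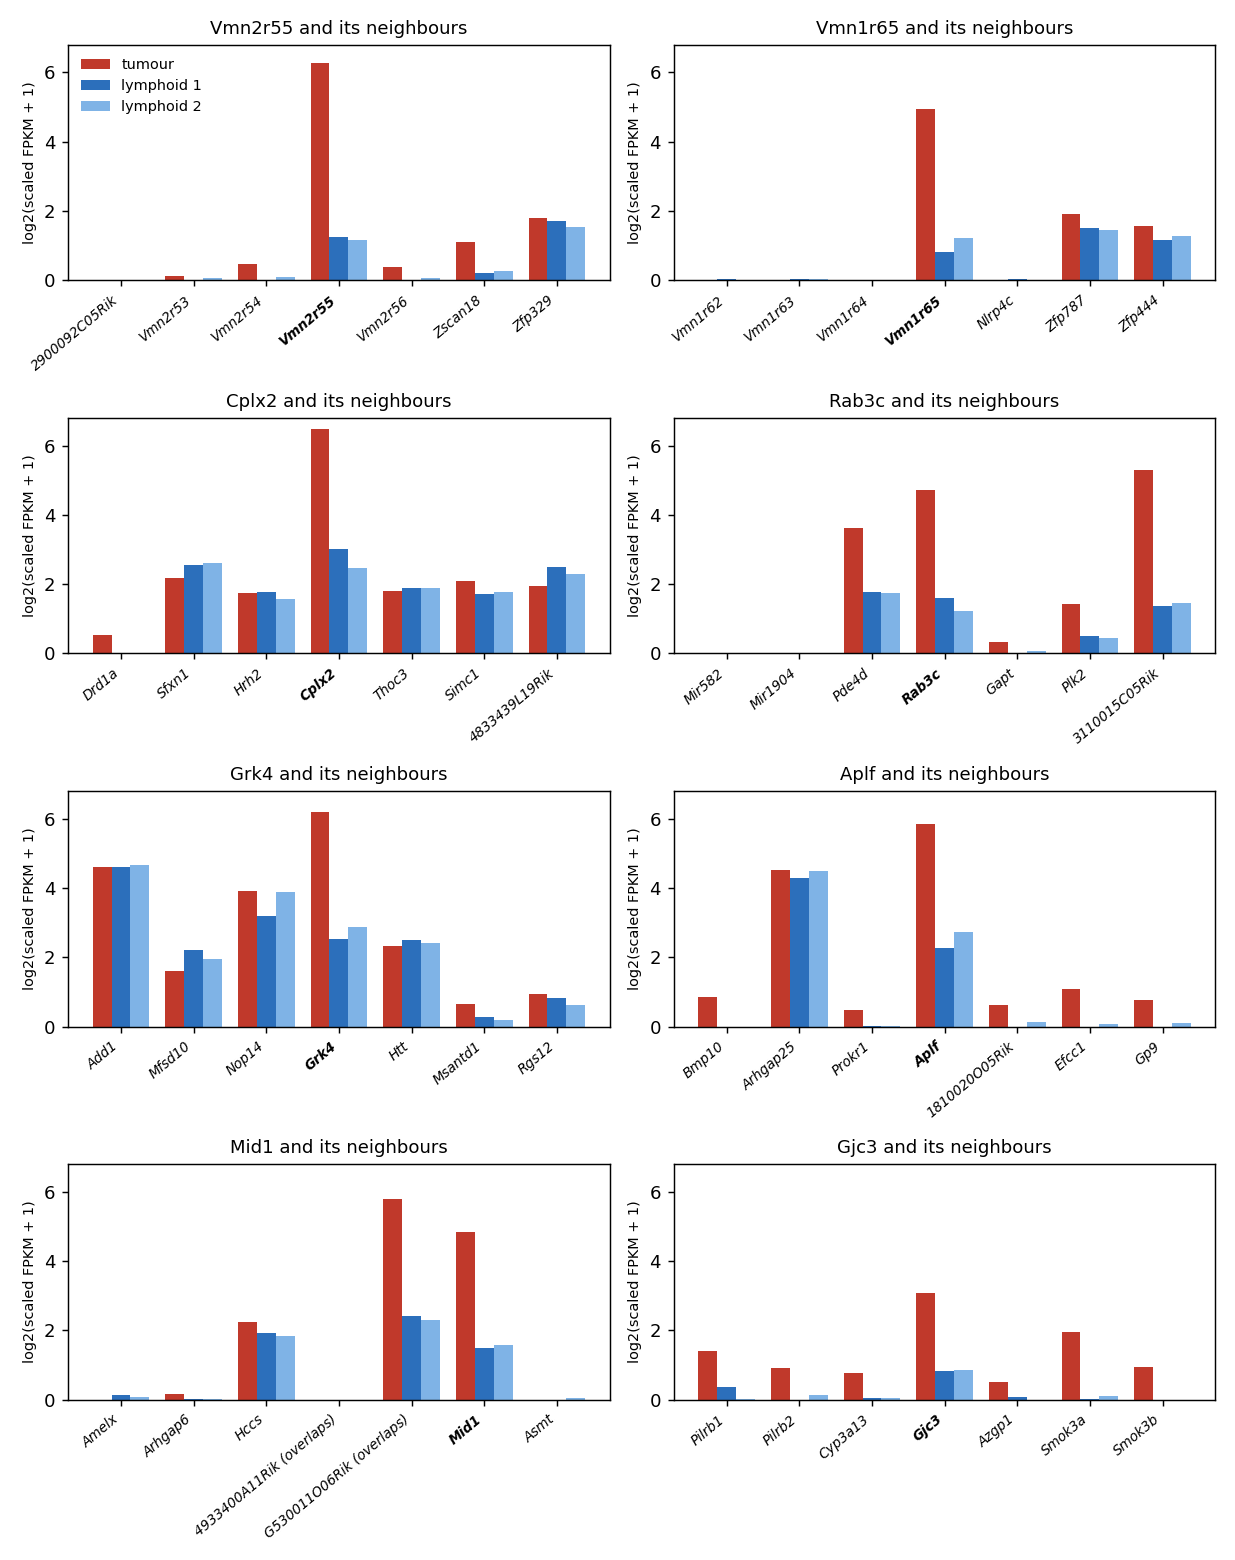
Level as log2(scaled FPKM + 1) in the tumour library (red bars) and lymphoid libraries 1 and 2 (blue bars) of each of the 8 genes (bold) and its neighbours, in chromosomal order but not to scale, with genes that overlap Mid1 marked. In the tumour library the gene of the 8 is the tallest of its panel except for Rab3c, under 3110015C05Rik, and Mid1, under G530011O06Rik.

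Most vomeronasal receptor genes were near 0 in all 3 libraries. Among 122 type 2 vomeronasal receptor rows, Vmn2r55 was the only one above 5 scaled FPKM in tumour. The next were Vmn2r96 at 2.16 in tumour, against 1.11 and 0.994 in lymphoid cells, and Vmn2r29 at 1.86, against 0.410 and 0.764. Without Vmn2r55 the family averaged 0.189 in tumour and 0.035 and 0.053 in lymphoid cells. Among 202 type 1 rows, Vmn1r58 was the highest in tumour, at 67.9 against 11.1 and 11.8 in lymphoid cells, followed by Vmn1r65 at 29.6 and Vmn1r87 at 2.54, against 0 and 0.059. Without Vmn1r65 that family averaged 0.534 in tumour and 0.060 and 0.098 in lymphoid cells.

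The odorant receptors of the main olfactory epithelium, another large family of sensory receptors, were low in the same way. Their 1116 rows averaged 0.643 scaled FPKM in tumour and 0.059 and 0.104 in lymphoid cells, and only 3 were above 5 in tumour. These were the pseudogene Olfr856-ps1 at 273 in tumour, against 36.3 and 48.1, Olfr613 at 65.5, against 13.5 and 14.1, and Olfr631 at 5.35, against 0.897 and 0.347. A few rows carried these averages. Without rows above 5 in tumour, the odorant receptors averaged 0.336 in tumour and 0.013 and 0.048 in lymphoid cells, and the type 1 receptors 0.197 in tumour and 0.0044 and 0.040. The other measures were ordered differently, since the median was 0 in tumour for both families and 0.032 (odorant) and 0.021 (type 1) in lymphoid library 2. Rows above 0 numbered 447 (odorant) and 75 (type 1) in tumour, against 152 and 22 in lymphoid library 1 and 627 and 121 in library 2, which was the deepest. Of the other receptors above 5 in tumour, Vmn1r58, Olfr856-ps1 and Olfr613 had lymphoid values of 11.1 to 48.1, while Olfr631, at 0.897 and 0.347, was as low there as Vmn2r55 and Vmn1r65, at 0.769 to 1.38.

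**Figure D4:**
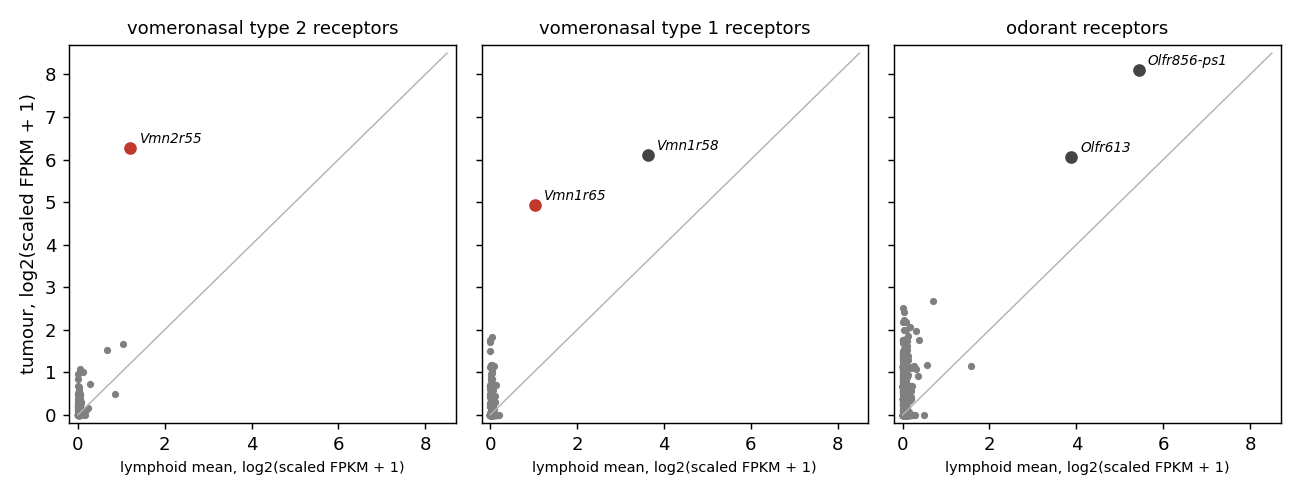
Tumour level against the lymphoid mean, each as log2(scaled FPKM + 1), for the 122 type 2 vomeronasal, 202 type 1 vomeronasal and 1116 odorant receptor rows, with the line of equal levels. Vmn2r55 and Vmn1r65 (red) and the 3 named receptors in dark grey stand apart from the other rows, which lie near the origin.

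Partner genes were listed for each of the 8 genes other than Vmn2r55 and Vmn1r65. They are relatives of these genes or genes that work with their proteins. Of 107 partner genes, 106 had a value and 56 were tested. Limma called 5 higher (8.93%) and 3 lower (5.36%), beside 12.7% and 9.17% of all tested genes, and their median log2 fold change was -0.03, beside -0.01. The lists were written with earlier results of these data known, and nothing is read from these counts about a list as a whole. Counts at an unadjusted p in the lists below have no share of all tested genes beside them. Nothing is read from those counts either. Below, any rank of the 8 genes above their relatives in the tumour library rests on the values for which they were chosen. The 3 lower calls, of Rab27a, Dclre1c and Xrcc5, were lost by library totals, at log2 fold changes of -0.20, -0.26 and -0.07, and with no filter the calls of Dclre1c, Xrcc5, Grk5, Rab3d and Rab3ip were lost.

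Among the complexins and the neuronal SNARE release machinery, 5 of 17 genes were tested and limma called none, with 4 higher and 0 lower at an unadjusted p under 0.05. The other complexin genes Cplx1, Cplx3 and Cplx4 were too low to be tested, at 0.481, 2.59 and 0.910 scaled FPKM in tumour, against at most 0.152 in lymphoid cells, and thus far under Cplx2 at 87.9. Snap25, the plasma membrane SNARE of neurons, stood at 0.498 in tumour, against 0.037 and 0.0076. The most abundant of the list was Napa, the alpha-SNAP gene of SNARE recycling in all cells, at 12.2 in tumour, against 8.53 and 7.61. Of the SNARE machinery of lymphocyte granules, 9 of 11 genes were tested, none was called higher (2 at an unadjusted p under 0.05) and Rab27a, the GTPase that docks lytic granules, was called lower, at 6.10 in tumour, against 11.8 and 12.6 (log2 fold change -0.90, SE 0.158, adjusted p = 0.016).

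Of the Rab3 family with its regulators and effectors, 10 of 15 genes were tested, 3 were called higher by limma and none lower, with none lower at an unadjusted p under 0.05. Rph3a, the rabphilin gene, whose protein binds active Rab3 on vesicles, stood at 4.34 scaled FPKM in tumour, against 0.270 and 0.317 in lymphoid cells (log2 fold change 2.05, SE 0.161, adjusted p = 0.0013). Rab3d, a Rab3 of secretory cells outside the nervous system, stood at 2.32 in tumour, against 1.02 and 1.17, and Rab3ip, an exchange factor, at 5.65, against 3.30 and 3.58. Their log2 fold changes of 0.66 and 0.58 (adjusted p = 0.038 and 0.045) turned to -0.06 and -0.37 as deposited, where neither was called. Rab3a and Rab3b, the relatives best known from synapses, stood at 2.24 and 0.625 in tumour, against 1.58 to 1.74 and 0 to 0.014 in lymphoid cells. Rab3c, at 25.04, was thus the most abundant Rab3 gene in the tumour library, whereas in lymphoid cells its 1.32 and 2.05 lay near the values of Rab3a.

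Of the receptor kinases and arrestins beside Grk4, 6 of 9 genes were tested, 2 were called higher and none lower (1 lower at an unadjusted p under 0.05). Grk1, the rhodopsin kinase of photoreceptors, stood at 20.2 scaled FPKM in tumour, against 1.86 and 2.04 in lymphoid cells (log2 fold change 2.84, SE 0.148, adjusted p = 0.00055). Grk5 stood at 3.77 in tumour, against 1.94 and 2.22, with a log2 fold change of 0.63 (adjusted p = 0.039) that turned to -0.23 as deposited, where it was not called. The kinases usual in lymphocytes did not pass the test. Adrbk1, which encodes GRK2, stood at 32.7 in tumour, against 37.6 and 40.6, and Grk6 at 27.7, against 30.8 and 33.4. In the tumour library Grk4, at 72.4, was therefore the most abundant kinase of this family, and in the lymphoid libraries, at 4.78 and 6.36, it was far under Adrbk1 and Grk6.

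Beside Aplf, 18 of 20 genes of non-homologous end joining and poly(ADP-ribose)-dependent repair were tested, limma called none higher, with none at an unadjusted p under 0.05, and 2 lower, with 6 lower unadjusted. The list's median log2 fold change was -0.19. Dclre1c, the Artemis nuclease gene, stood at 1.20 scaled FPKM in tumour, against 2.91 and 2.45 in lymphoid cells (log2 fold change -0.74, SE 0.162, adjusted p = 0.030), and Xrcc5, the Ku80 gene, at 3.07, against 6.17 and 5.05 (log2 fold change -0.69, SE 0.171, adjusted p = 0.041). Xrcc4, to whose protein Aplf also binds, stood at 6.25 in tumour, against 6.82 and 6.30. Aplf, at 56.4 in tumour, stood above each of these genes there, and in lymphoid cells, at 3.82 and 5.58, it lay within their range.

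Of the Mid1 relatives and PP2A-alpha4 partners, 7 of 15 genes were tested and limma called none, with 1 higher and 1 lower at an unadjusted p under 0.05. Mid2, the closest relative of Mid1, stood at 0.606 scaled FPKM in tumour, against 0.033 and 0.094 in lymphoid cells, and Igbp1, the alpha4 gene, at 10.6 in tumour, against 14.3 and 20.05. The catalytic subunit gene Ppp2ca, the most abundant of the list, stood at 33.0 in tumour, against 29.6 and 31.4. Of 22 connexin and pannexin genes other than Gjc3, only Panx1, a channel gene of lymphocytes, was abundant enough to be tested. It was not called, at 8.15 in tumour, against 8.73 and 6.82, with a log2 fold change of 0.07. The connexins of the list stood at or under 1.88 in tumour, the value of Gjb5, so that Gjc3, at 7.44, was the most abundant of these connexins in the tumour library.

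**Figure D5:**
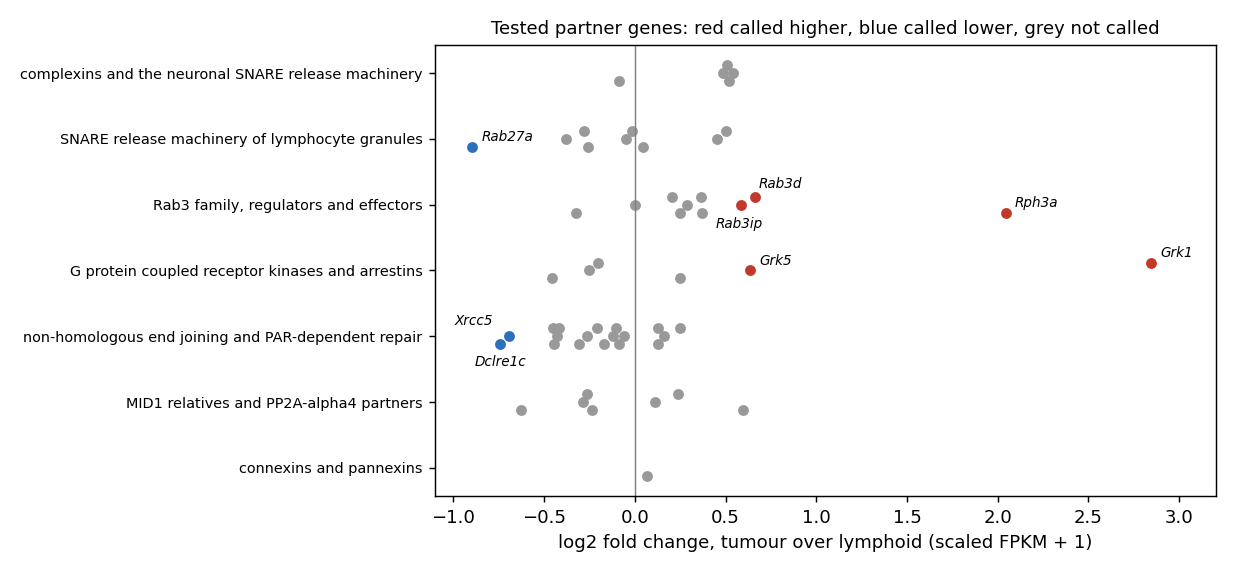
Log2 fold change of tumour over lymphoid (scaled FPKM + 1) for the tested partner genes, by list, with genes called higher by limma in red, lower in blue and not called in grey. Calls were 5 higher and 3 lower, with Grk1 at 2.84 and Rph3a at 2.05 farthest to the right.

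The transcripts of 4 of the 8 genes carry repeated sequence. Of the longest transcript, the bases covered by 20-base words found in transcripts of over 50 other genes numbered 588 for Grk4, 487 for Gjc3, 281 for Rab3c and 188 for Cplx2. In tested genes these amounts are at percentiles 99.3, 98.9, 96.3 and 92.2, and in Grk4, Gjc3 and Rab3c they lie after the coding part of that transcript. For Grk4 this annotated coding part is short, bases 575 to 1105 of 3234, and its other transcripts were not searched for words. Vmn2r55, Vmn1r65, Aplf and Mid1 had none, though with 16-base words 139 bases of Vmn1r65 counted, which made 5 genes, and with 24-base words the number stayed at 4. By alignment of their transcripts, some of the 8 genes share sequence with each other. Cplx2 and Rab3c align over 215 positions at 92.6% identity on the same strand, after the coding part of both. Aplf and Vmn1r65 align over 406 positions at 84.7% identity on the same strand, after the coding part of Aplf and before that of Vmn1r65. Grk4 and Gjc3 align over 369 positions at 78.0%, and Rab3c and Gjc3 over 148 positions at 79.1%, both on opposite strands. By the same search, transcripts of 4469 other genes aligned to Gjc3, 1027 to Rab3c, 828 to Grk4, 210 to Cplx2, 133 to Vmn1r65, 39 to Aplf, 6 to Mid1 and 5 to Vmn2r55. How reads in such stretches were assigned is not given in the sources used here, and their part in the levels was not tested.

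None of the 4 short sequences searched was found in the RefSeq promoter windows of more than 1 of the 8 genes. These windows need not lie at the starts in use, as said above for Vmn2r55. The Cplx2 window, chr13:54302306-54302605, lies outside the GENCODE gene Cplx2. The Rab3c window, chr13:110280157-110280456, lies wholly inside the GENCODE gene Rab3c. RefSeq gave 10 windows of 300 bases for the 8 genes, 3 of them for Mid1, with a GC content of 40.3% to 59.3% beside a median of 52.7% over all 32851 windows. The AP-1 sequence TGANTCA was in 0 of the 10, and in 7.81% of all windows. The cAMP response element TGACGTCA was in that of Aplf alone, and in 1.79% of all windows. The NR4A sequence AAAGGTCA was in 0, and in 1.51% of all windows, and TATAAA was in that of Vmn1r65 alone, and in 13.6% of all windows. Both strands were searched, and overlaps between these sequences were allowed. A match is a description of the letters in these windows, and their absence says nothing about a factor.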

How the data were processed

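RNA was measured in 1 tumour and 2 lymphoid libraries of CD4+ T cells, read in pairs of 75 bp per the labels' protocols. The deposited values, 1 for each of 23832 gene rows per library, were taken as FPKM. That unit is not stated and was inferred from column names in the style of Cufflinks, per the file headers, and from library sums that differ. Per the submitters' processing notes, mm10, kallisto and DESeq2 were used, with neither role nor version stated. Which program produced the values, with what annotation, strand setting or filter, is not given in the sources used here, so reads shared by similar genes may have been divided in any way.

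Where a symbol had several rows (252 symbols), only that of highest mean was used, and each of the 8 genes had 1 row. Symbols were matched to GENCODE M21 (on GRCm38, which mm10 names too), 21666 directly and 1251 through a RefSeq synonym. Values were divided by median-of-ratios factors. Limma 3.58.1 (R 4.3.3, trend option) was fitted on log2(scaled FPKM + 1) of the 9800 genes averaging at least 1 FPKM as deposited, and p-values were adjusted by Benjamini-Hochberg over all of them. The fit leaves 1 residual degree of freedom and takes the tumour library to vary like the lymphoid ones. FPKM are no counts, so no count test was run. The script was tested on simulated data.

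Depth was estimated from the FPKM times length that most low genes share, taken as 1 fragment. Only counting error is covered by fragment numbers. Transcripts were aligned with blastn 2.17.0 (e-value at most 1e-20, at least 100 positions at 75% identity). The word-length and lymphoid-filter alternatives were chosen after seeing the data.

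The 8 genes and all lists were chosen with earlier results of these data known. Named genes are all 8, the nearest neighbour on each side and each called neighbour, the largest called rise and fall of each partner list or its most abundant gene, the 3 highest of each receptor family in tumour, and the nearest gene in value to each of the 8. Cplx1, Cplx3, Cplx4, Snap25, Rab3a, Rab3b, Rab3d, Rab3ip, Grk5, Grk6, Adrbk1, Xrcc4, Mid2, Igbp1 and Gjb5 were named besides, Xrcc5 and the single markers likewise, after their values had been seen. The same holds for the neighbours Sfxn1, 4833439L19Rik, Mfsd10, Zfp787, Arhgap25, Plk2, Isy1 and Ppp1r35.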

Additional observations from a re-analysis of the deposited data

How the results depend on the processing

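The log2 fold changes of the 8 genes were positive in all 64 combinations of gene and alternative. All 8 genes were at least 4-fold higher in tumour than in each lymphoid library, except that 6 were as deposited and 7 with a pseudocount of 5. Gjc3, the lowest, ranged from 1.10 (pseudocount 5) to 3.06 (pseudocount 0.1), and Vmn2r55, the highest, from 3.68 to 5.75 between the same settings.

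Counts over all genes followed the scaling and the filter. As deposited, 465 genes were called higher and 7620 lower, by library totals 4370 and 279, with no filter 6362 and 512, and with a mean of at least 5 FPKM 211 and 191. The median of tested genes was -0.96 as deposited, 0.65 by library totals and -0.08 by totals without small RNA rows. Genes at least 4-fold higher numbered 53 as deposited, 395 by totals, and 360 and 54 with pseudocounts of 0.1 and 5.

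Among neighbours, 11 were called lower as deposited, 10 higher by totals, 14 higher with no filter, and 6 higher and 1 lower when every gene within 200 kb was counted. Their median log2 fold change was 0 as deposited, 0.64 by totals, 0.29 by totals without small RNA rows, and 0.57 and 0.10 with pseudocounts of 0.1 and 5. It was 0.30 to 0.34 with either lymphoid library left out. The genes added by the 200 kb rule lay at other loci too. Isy1, near Aplf, stood at 37.7 scaled FPKM in tumour, against 10.6 and 14.1 in lymphoid cells. Ppp1r35, near Gjc3, stood at 2.39 in tumour, against 4.98 and 5.84. Among partners, 2 were called higher and 47 lower as deposited, 26 and 0 by totals, 31 and 1 with no filter and 1 and 1 with a mean of at least 5 FPKM. By totals without small RNA rows 3 were called higher. The cause of these differences was not tested. Leaving out a lymphoid library leaves no residual degrees of freedom, so calls were not repeated that way. No paired analysis was possible because the tumour group is 1 library without a replicate number.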

Other observations

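The class of a gene and the repeated sequence in its transcript went with the size of the tumour difference among genes other than the 8. Of tested protein-coding genes with a matched annotation, 124 of 9100 (1.36%) were at least 4-fold higher in tumour than in each lymphoid library, against 57 of 396 (14.4%) of genes of other classes, with small RNA rows left out. A gene could enter through its tumour value alone. Among genes with a lymphoid mean of at least 1 FPKM as deposited, a filter chosen after seeing the data, the shares were 75 of 8946 (0.838%) and 31 of 347 (8.93%). By bases of the longest transcript covered by 20-base words found in over 50 other genes, the share was 1.13% of 4954 genes with none, 2.75% of 4542 genes with any and 4.03% of 1662 genes with over 100 bases. With the lymphoid filter these shares were 0.512%, 1.84% and 2.88%. Of the 8 genes, 4 had none, and Cplx2, Rab3c, Grk4 and Gjc3 had over 100. Longer transcripts have more room for such words, and genes are not independent replicates, so these shares are a description of 3 libraries.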
